A study of Mus musculus with 8 samples.

Results

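The transcription factors of the oligodendrocyte (OL) lineage were followed in brainstem (BS) RNA-seq of KI and control mice. The set was chosen by gene symbol and holds 10 of the 24081 genes in the deposited table: Olig1, Olig2, Sox10, Sox8, Myrf, Nkx2-2, Nkx6-2, Zfp488, Tcf7l2 and Zfp24. All 10 passed the filter on low values (10 or more normalized counts on average), as did 15123 genes overall. The KI group (4 mice) carried Olig2-Tv-a/Cre, p53 fl/fl and hPDGFRA fl/+ alleles, in which Cre removes a loxP-flanked stop and a CAG promoter drives human PDGFRA cDNA from the Rosa26 locus. The control group (4 mice) carried Olig2-Tv-a/Cre and p53 fl/fl, so both groups could lose p53 in Olig2-expressing progenitors and differed by genotype in the transgene. All mice also carried Nestin tv-a, a viral receptor transgene, and no virus was given. All 8 mice were untreated C57BL/6 animals aged postnatal day 19 (P19) per the labels, and the study's methods also allow the day before. The Cre allele sits at the Olig2 locus in both groups, which limits Olig2 as a readout of the endogenous gene, and by the study's methods mutant mice were euthanized around this age for weight loss or failing mobility. In bulk tissue, fewer cells of a type and less RNA per cell cannot be told apart.

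OLs arise from OL precursor cells (OPCs), and the lineage is built by a small circuit of transcription factors. The basic helix-loop-helix (bHLH) factors Olig1 and Olig2 and the SoxE factors Sox10 and Sox8 are present from the OPC onward, whereas Myrf is switched on as cells leave the OPC state and, with Sox10, turns on myelin genes. Nkx2-2, Nkx6-2, Zfp488, Tcf7l2 and Zfp24 act during differentiation and myelination. Several members are also used elsewhere: Sox10 in Schwann cells, Sox8 in astrocytes, Nkx2-2 in ventral neural progenitors and Tcf7l2 in neurons of the thalamus and dorsal midbrain.

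Libraries held 21492789 to 24458589 recovered reads in KI mice and 24816146 to 27716846 in control mice. The transcript of the targeted locus, Gt(ROSA)26Sor, had 603, 605, 573 and 328 normalized counts in KI replicates 1 to 4, against 82.9 to 93.9 in control libraries. The groups did not overlap, and KI replicate 4 was the lowest of the KI libraries. Pdgfra, counted on the mouse gene, had 11437, 9706, 8939 and 3269 in KI replicates 1 to 4 and 2565 to 3087 in control libraries, and what share of reads came from the human cDNA was not tested. KI replicate 3 and control replicate 4 stood apart in Ttr, the transthyretin gene that defines choroid plexus, with 237 in KI replicate 3 and 14985 to 33888 in the other KI libraries, and 44.9 in control replicate 4 and 60505 to 97274 in the other control libraries. Xist was above 1000 normalized counts in KI replicate 4 and in control replicates 2 and 3. Results that rest on these libraries are given with and without them.

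Of the 10 factors, 6 were lower in KI BS (Olig1, Olig2, Sox10, Sox8, Myrf and Zfp488), 1 was higher (Zfp24) and 3 did not pass the test (Nkx2-2, Nkx6-2 and Tcf7l2). The test was limma on log2(normalized count + 1) over all genes, with a Benjamini-Hochberg adjusted p under 0.05. Over all genes tested, 12.4% were lower and 12.0% were higher by the same call. The median log2 fold change (KI minus control) was -1.07 over the 10 factors and -0.00 over all genes tested. All 4 KI libraries lay below all 4 control libraries in the same 6 factors and above them in Zfp24, a pattern found in 12.8% of all genes in the lower direction and 12.7% in the higher. With edgeR on the recovered reads 6 factors were lower, against 11.2% of all genes, and with DESeq2 7 were lower, against 14.3%, the added one being Nkx2-2. Leaving out KI replicate 2 left 2 lower factors, Olig1 and Sox8, against 2.73% of all genes, and leaving out control replicate 2 left 3, Olig1, Sox8 and Zfp488, against 2.28%. Those that lost the call had adjusted p of 0.0505 to 0.0571 in these limma fits.

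**Figure D1:**
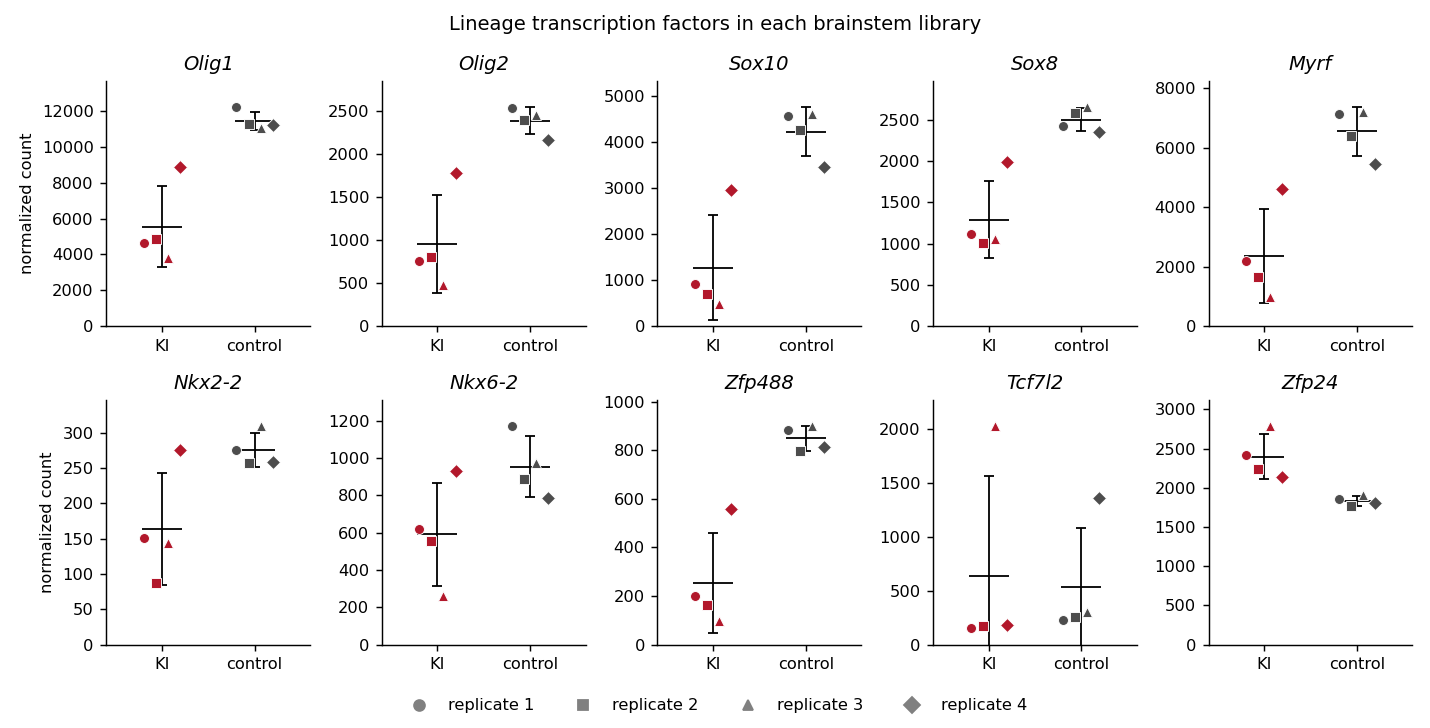
Normalized counts of the 10 factors in each library (vertical axes, linear, starting at 0), with KI libraries in red on the left and control libraries in grey on the right, marker shape for the replicate, and horizontal and vertical bars for the group mean ± SD (n = 4 each). In 6 panels every KI point lies below every control point, KI replicate 4 (diamond) is the highest KI point in 8 panels, and the lower bars of Tcf7l2 run off the axis below 0.

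Olig2, the bHLH factor that specifies the lineage, had 751, 807, 478 and 1780 normalized counts in KI replicates 1 to 4, against 2533, 2396, 2449 and 2167 in control replicates 1 to 4. All KI libraries were below all control libraries, with KI replicate 4 well above the other KI libraries. The mean was 954 ± 569 in KI mice and 2386 ± 157 in control mice (SD, n = 4 each), or 40.0% of the control mean, with a log2 fold change of -1.49 ± 0.32 (SE, adjusted p = 0.0151, limma). Olig2 spans chr16:91225549-91228677 on the plus strand (GRCm38, GENCODE vM21).

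Olig1, its neighbor on the same chromosome and the most abundant factor of the set, had 4648, 4875, 3792 and 8877 normalized counts in KI libraries, against 12229, 11302, 11088 and 11238 in control libraries. The control libraries were tightly grouped and none reached down to a KI value. Olig1 averaged 5548 ± 2268 in KI mice and 11464 ± 517 in control mice, with a log2 fold change of -1.12 ± 0.22 (SE, adjusted p = 0.0122, limma). Of the exon bases of Olig1 (chr16:91269768-91271939), 7.26% are shared with the gene Gm15966 on the other strand, where ambiguous reads were not counted.

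Sox10, the SoxE factor required for terminal differentiation, had the largest log2 decrease of the 10 factors in the limma fit, close to that of Zfp488, which fell slightly further with edgeR, the Xist covariate and the GC and length correction. It had 921, 698, 480 and 2961 normalized counts in KI libraries, against 4557, 4265, 4607 and 3454 in control libraries. KI replicates 1 to 3 held 11.4% to 21.8% of the control mean and KI replicate 4 held 70.2%, so that the gap between KI replicate 4 and the lowest control library was small. The log2 fold change was -2.10 ± 0.46 (SE, adjusted p = 0.0160, limma), and without KI replicate 4 it was -2.63. Sox10 lies at chr15:79154912-79164490 on the minus strand. Schwann cells also express Sox10, and none of the 4 Schwann markers tested passed the test. Egr2 and Pmp2 were listed too but fell below the filter on low values. Summed over all 6 listed, the level was 1347 to 2679 in KI libraries and 1404 to 3039 in control libraries.

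Sox8, the SoxE relative with partly overlapping function, fell least of the 6. It had 1113, 1005, 1058 and 1992 normalized counts in KI libraries, against 2423, 2582, 2656 and 2354 in control libraries. KI replicates 1 to 3 were nearly equal, and KI replicate 4 was apart from them but below every control library. Sox8 averaged 1292 ± 469 in KI mice and 2504 ± 139 in control mice, with a log2 fold change of -1.01 ± 0.19 (SE, adjusted p = 0.0119, limma). Sox8 lies at chr17:25565892-25570686, where 10.6% of its exon bases are shared with 2810468N07Rik on the other strand.

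Myrf, a membrane-tethered factor that is cleaved to release a transcriptional activator of myelin genes, had 2199, 1636, 981 and 4607 normalized counts in KI libraries, against 7146, 6404, 7193 and 5460 in control libraries. Every KI library was below every control library, with KI replicate 3 at 15.0% and KI replicate 4 at 70.3% of the control mean. The mean was 2356 ± 1581 in KI mice and 6551 ± 812 in control mice, and the log2 fold change was -1.70 ± 0.38 (SE, adjusted p = 0.0170, limma). Myrf lies at chr19:10208270-10240748 on the minus strand.

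Zfp488, a zinc finger repressor that promotes OL differentiation, had 199, 163, 98.2 and 558 normalized counts in KI libraries, against 883, 799, 901 and 812 in control libraries. It was the fallen factor in which KI replicate 4 stayed furthest from the control mean, at 65.7%. The mean was 254 ± 206 in KI mice and 849 ± 50.5 in control mice, and the log2 fold change was -2.04 ± 0.43 (SE, adjusted p = 0.0140, limma), close to that of Sox10. Zfp488 lies at chr14:33967069-33978764 on the minus strand.

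Start-site sequences show what lies just before 3 of the factors that fell. Each run is the 250 bases before the RefSeq start site (GRCm38.p6), read 5′ to 3′ in the direction of the gene, with E-boxes (CANNTG, which reads the same on both strands and is the class of site bound by bHLH factors) in capitals.
Olig2 (chr16:91225300-91225549, plus strand): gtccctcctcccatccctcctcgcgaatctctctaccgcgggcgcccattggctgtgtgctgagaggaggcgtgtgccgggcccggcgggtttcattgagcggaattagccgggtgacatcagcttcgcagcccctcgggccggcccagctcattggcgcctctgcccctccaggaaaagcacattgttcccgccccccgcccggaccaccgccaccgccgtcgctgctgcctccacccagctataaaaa
Sox8 (chr17:25570687-25570936, minus strand): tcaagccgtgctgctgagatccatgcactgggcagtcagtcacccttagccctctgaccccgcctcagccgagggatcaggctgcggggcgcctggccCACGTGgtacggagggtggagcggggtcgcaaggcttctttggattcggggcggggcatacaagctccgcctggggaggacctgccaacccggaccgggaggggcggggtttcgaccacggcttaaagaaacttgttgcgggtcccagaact
Zfp488 (chr14:33978765-33979014, minus strand): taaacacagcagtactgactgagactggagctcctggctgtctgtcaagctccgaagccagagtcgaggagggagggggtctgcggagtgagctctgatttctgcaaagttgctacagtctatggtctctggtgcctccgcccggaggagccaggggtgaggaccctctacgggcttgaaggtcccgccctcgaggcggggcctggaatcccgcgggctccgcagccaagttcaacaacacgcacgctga
The Sox8 window held 1 E-box and those of Olig2 and Zfp488 held 0, where 66.2% of 32851 promoter windows of this length hold at least 1. The letters ACAAAG, a form of the core read by Sox factors, were in none of the 3 windows on either strand and in 16.5% of all windows. Other forms of that core were not searched. A match, or its lack, describes these letters only.

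Nkx2-2, a homeodomain factor that times OPC differentiation, had 151, 87.0, 144 and 275 normalized counts in KI libraries, against 276, 258, 310 and 259 in control libraries. KI replicate 4 lay inside the control range and the other 3 KI libraries lay below it. The log2 fold change of -0.86 ± 0.29 (SE) did not pass the test (adjusted p = 0.0553, limma), and without KI replicate 4 it was -1.15 (adjusted p = 0.00242). Nkx2-2 (chr2:147183151-147186402) shares 9.67% of its exon bases with Nkx2-2os on the other strand.

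Nkx6-2, a homeodomain factor that acts in myelination and paranode assembly, had 618, 553, 261 and 930 normalized counts in KI libraries, against 1173, 888, 972 and 783 in control libraries. KI replicate 4 was above 2 of the control libraries. The log2 fold change of -0.81 ± 0.33 (SE) did not pass (adjusted p = 0.0969, limma), and without KI replicate 4 it was -1.08 (adjusted p = 0.0171). In that fit 8 of the 10 factors were lower, against 18.2% of all genes. Nkx6-2 (chr7:139581219-139582797) shares 12.9% of its exon bases with Inpp5a on the other strand.

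**Figure D2:**
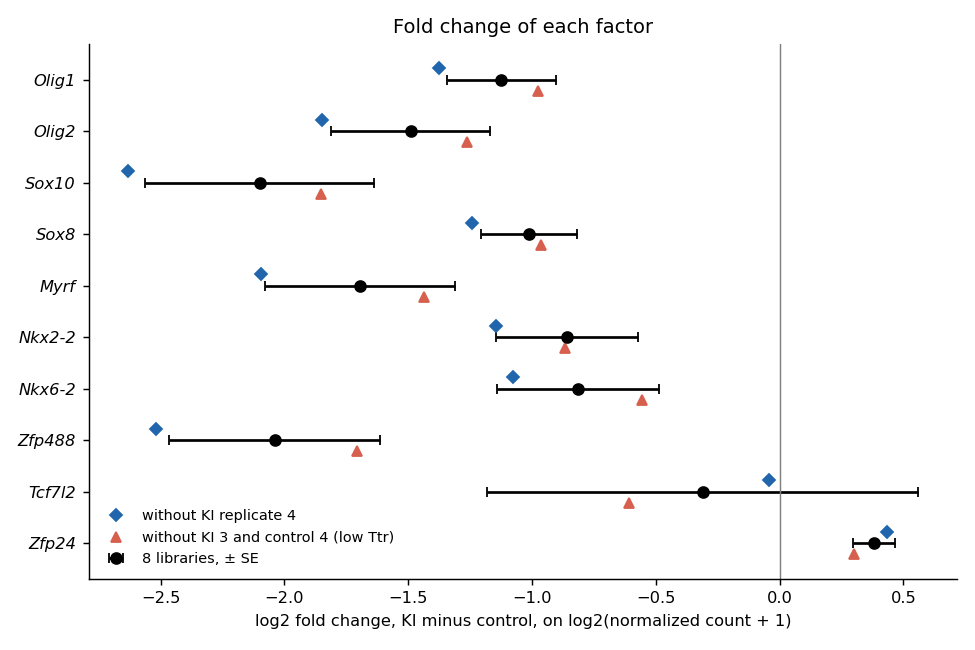
Log2 fold change of each factor, KI minus control on log2(normalized count + 1) (horizontal axis), for all 8 libraries (black circles, bars ± SE), without KI replicate 4 (blue diamonds) and without KI replicate 3 and control replicate 4 (orange triangles). Sox10 lies furthest to the left at -2.10, Zfp24 is the factor to the right of 0 at 0.38, and Tcf7l2 has the widest bar, ± 0.87.

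Tcf7l2, an HMG-box effector of Wnt signaling that is transiently high in newly formed OLs, split the libraries by a line other than genotype. It had 154, 173, 2030 and 179 normalized counts in KI replicates 1 to 4, against 224, 254, 299 and 1355 in control replicates 1 to 4. The high libraries were KI replicate 3 and control replicate 4, the same that were low in Ttr. Over all 8 libraries the log2 fold change was -0.31 ± 0.87 (SE, adjusted p = 0.822, limma), while the linear mean was higher in KI mice, 634 ± 931, than in control mice, 533 ± 549, and edgeR gave a log2 fold change of 0.27. Without control replicate 4 the log2 fold change was 0.29, and without KI replicate 3 it was -1.21, neither past the threshold. Without both, Tcf7l2 was lower in KI mice at -0.61 (adjusted p = 0.0395, limma), with 154 to 179 in KI libraries and 224 to 299 in control libraries. Then 7 of the 10 factors were lower, against 6.14% of all genes. Tcf7l2 lies at chr19:55741809-55933655 on the plus strand.

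The 3 genes most like Tcf7l2 over the 8 libraries were Shisa3, Cdhr1 and Pou4f2, by the root mean square difference of centered log2 values. Pou4f2, a POU-domain factor of retinal ganglion cells and dorsal midbrain neurons, had 40.4, 41.3, 187 and 35.6 in KI replicates 1 to 4, against 23.2, 25.4, 42.9 and 150 in control replicates 1 to 4. KI replicate 3 and control replicate 4 were again the high ones. Of 7 dorsal midbrain and thalamus genes, 5 were highest in KI replicate 3 among KI libraries and in control replicate 4 among control libraries. Gbx2 went the other way, with 63.1 in KI replicate 3 and 103 to 127 in the other KI libraries, and 56.6 in control replicate 4 and 58.8 to 85.7 in the other control libraries, and Pou4f1 was high in neither. Rora, the largest of the 7 in every library, had 4419 in KI replicate 3 and 2613 to 2999 in the other KI libraries. In control replicate 4 Rora had 2344, and in the other control libraries 1816 to 1925. Rora was also higher in KI mice by the same call, at 0.65 (adjusted p = 0.0211, limma), which enters the sum. Summed over the 7, KI replicate 3 had 5923 and the other KI libraries 3409 to 3964. Control replicate 4 had 3714 and the other control libraries 2764 to 2926. The part of this regional pattern in the Tcf7l2 values was not tested beyond the fits above.

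**Figure D3:**
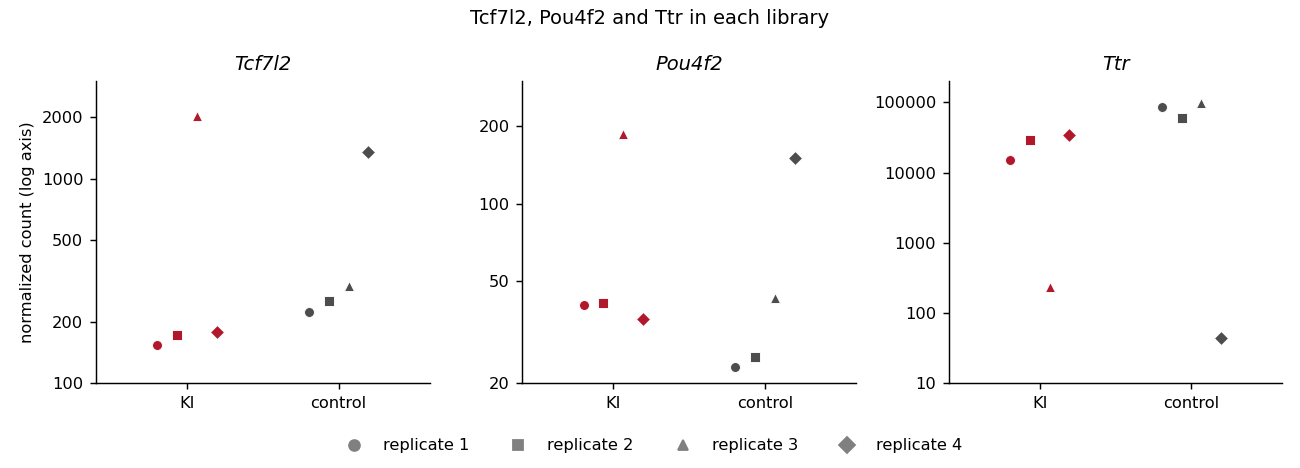
Normalized counts (log axes) of Tcf7l2, Pou4f2 and Ttr in each library, with KI in red on the left, control in grey on the right and marker shape for the replicate. KI replicate 3 (triangle) and control replicate 4 (diamond) are the highest of their groups in Tcf7l2, at 2030 and 1355, and in Pou4f2, and the lowest of their groups in Ttr, at 237 and 44.9.

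Zfp24, a zinc finger factor needed for the late, myelinating stage of the lineage and also expressed in many other cells, was the factor that rose. It had 2418, 2238, 2790 and 2136 normalized counts in KI libraries, against 1851, 1762, 1903 and 1806 in control libraries. No KI library overlapped the control range, and KI replicate 4 was the nearest to it. The mean was 2395 ± 288 in KI mice and 1830 ± 60.6 in control mice, a log2 fold change of 0.38 ± 0.08 (SE, adjusted p = 0.0164, limma). The call was lost without control replicate 2 (0.36, adjusted p = 0.0577) and after a correction of each library for GC content and transcript length (0.30, adjusted p = 0.0638). Zfp24 lies at chr18:24012266-24020771 on the minus strand.

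The spread among KI libraries was set largely by replicate 4. The coefficient of variation over KI mice was 36.3% for Sox8, 40.9% for Olig1, 59.7% for Olig2, 67.1% for Myrf, 81.1% for Zfp488 and 90.5% for Sox10, against 4.51% to 12.6% for these 6 factors over control mice. Over KI replicates 1 to 3 it was 5.10% for Sox8, beside 5.55% over control mice, and 12.9% (Olig1) to 38.0% (Myrf) for the other 5. KI replicate 4 was the highest KI library in 8 factors, and it was the KI library nearest to the control mean in all 10. KI replicate 3 was the lowest KI library in 6 factors and the furthest from the control mean in 8. In the 6 factors that fell, KI replicate 4 held 65.7% to 79.6% of the control mean, and the mean of KI replicates 1 to 3 held 16.6% (Sox10) to 42.3% (Sox8). The same library had the least Gt(ROSA)26Sor and Pdgfra of the KI group and was the one KI library with high Xist, and the part of either in its higher factor levels was not tested. With log2 Xist as a covariate the same number of factors, 6, were lower, against 6.64% of all genes. Their log2 fold changes ran from -0.79 for Sox8 to -1.62 for Zfp488 and Sox10.

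**Figure D4:**
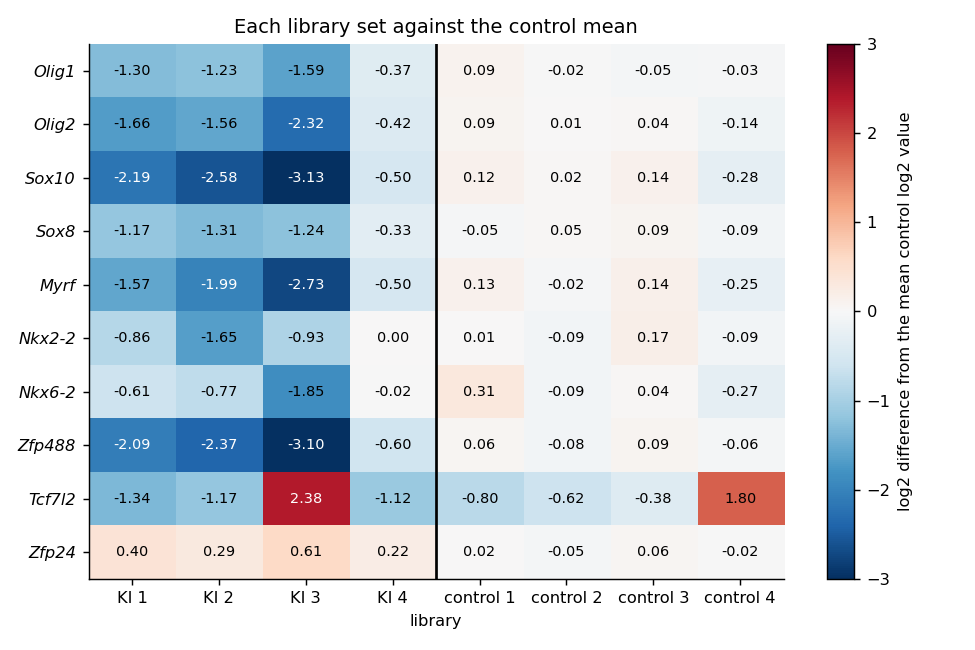
Each cell gives the log2 difference of a factor (rows) in a library (columns, KI to the left of the black line and control to the right) from the mean control log2 value, with blue below and red above. The 3 columns KI 1 to KI 3 are the bluest in the rows of the factors that fell, the column KI 4 is paler, and the Tcf7l2 row is red in KI 3 and control 4.

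Set per kilobase of merged exon, so that genes can be compared, Olig1 had the highest level in both groups, at 2566 ± 1049 normalized counts per kb in KI mice and 5303 ± 239 in control mice (SD, n = 4 each). In control mice Sox10 followed at 1383, Olig2 at 943, Sox8 at 803, Myrf at 765, Nkx6-2 at 500, Zfp24 at 292, Zfp488 at 197, Nkx2-2 at 95.9 and Tcf7l2 at 60.7. Neighbors in that order whose control libraries overlapped were Sox8 with Myrf and Nkx2-2 with Tcf7l2. The Tcf7l2 overlap rests on control replicate 4, without which Tcf7l2 had 25.5 to 34.1 normalized counts per kb, against 89.6 to 108 for Nkx2-2, and no longer overlapped it. In KI mice Sox10 at 415, Sox8 at 414, Zfp24 at 382, Olig2 at 377, Nkx6-2 at 310 and Myrf at 275 normalized counts per kb had overlapping ranges. Zfp24 stood 4th in the KI order and 7th in the control order, and Olig2 stood 5th in the KI order and 3rd in the control order.

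Levels relative to Olig2 in the same library show whether the factors moved in step with Olig2. Each log2 ratio was compared with a two-sided exact permutation test over the 70 labelings, whose smallest possible p is 0.0286, and 9 ratios were adjusted together. None of the 9 passed (smallest adjusted p = 0.0643, exact permutation test), and 4 had an unadjusted p of 0.0286 with groups that did not overlap. With 4 ratios at that smallest p, their adjusted p cannot fall below 0.0643, so the test could not decide on them. Zfp24 was 1.87 higher relative to Olig2 in KI mice, with ratios of 0.26 to 2.54 in KI libraries and -0.45 to -0.26 in control libraries. Nkx6-2 was 0.68 higher, with ratios of -0.94 to -0.28 in KI libraries and -1.47 to -1.11 in control libraries. Sox8 was 0.48 higher, with 0.16 to 1.15 in KI libraries and -0.06 to 0.12 in control libraries. Zfp488 was 0.55 lower relative to Olig2, with -2.30 to -1.67 in KI libraries and -1.58 to -1.41 in control libraries.

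Of the remaining ratios to Olig2, Olig1 was 0.37 higher and Sox10 0.61 lower, both with an exact permutation p of 0.0571 (adjusted p = 0.0857). The ratio of Myrf to Olig2 differed by -0.21 (exact permutation p = 0.257), with 1.02 to 1.55 in KI libraries and 1.33 to 1.55 in control libraries. Without KI replicate 4, 6 of the 9 ratios passed: those of Olig1, Sox8, Nkx6-2 and Zfp24 were higher in KI mice and those of Sox10 and Zfp488 were lower (adjusted p = 0.0429 for each, exact permutation test). That value is the lowest that 6 of 9 ratios at the smallest possible p can take. Relative to Sox10 in all 8 libraries, none of 9 ratios passed (smallest adjusted p = 0.0857, exact permutation test). There 3 had an unadjusted p of 0.0286, those of Nkx2-2, Nkx6-2 and Zfp24, all higher in KI mice. Zfp488 differed from Sox10 by 0.06 (exact permutation p = 0.571) and Sox8 by 1.09 (exact permutation p = 0.0571). Which ratios stood out thus depended on the denominator.

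**Figure D5:**
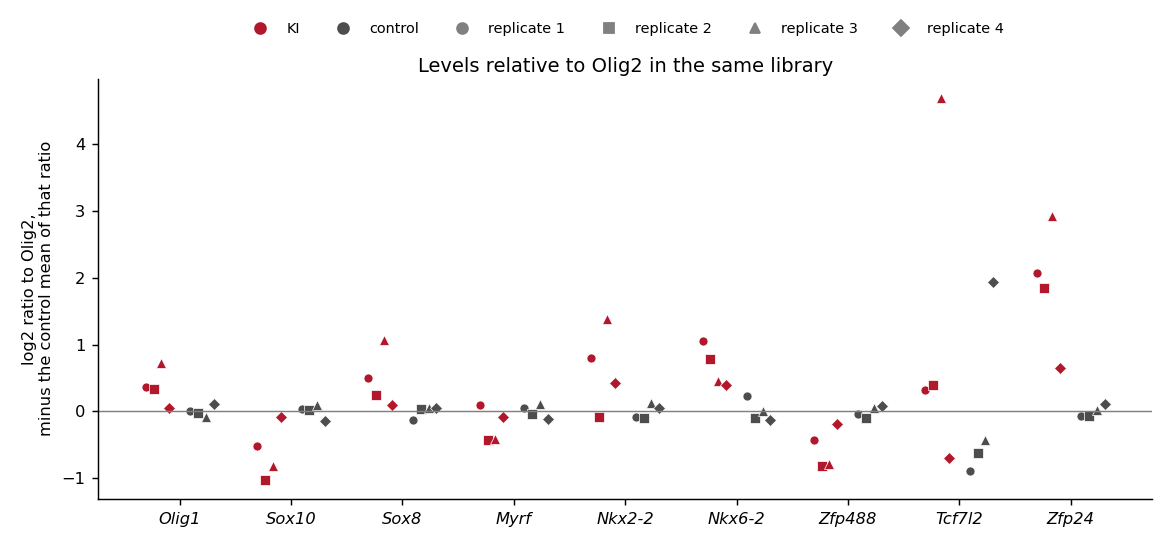
Log2 ratio of each factor to Olig2 in the same library, drawn as the difference from the control mean of that ratio (vertical axis), with KI libraries in red on the left, control libraries in grey on the right and marker shape for the replicate. KI and control points do not overlap for Sox8, Nkx6-2, Zfp488 and Zfp24, and the KI points of Zfp24 reach furthest up apart from 1 Tcf7l2 point.

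Likeness over the 8 libraries was set as the root mean square difference of centered log2 values, among 12657 named genes that averaged 50 or more normalized counts, and is a description, since libraries and depth are shared. Erbb3, the neuregulin co-receptor of OL and Schwann cells, was nearest to Sox10, differing by 0.047. It had 451, 349, 240 and 1610 normalized counts in KI libraries, against 2230, 2150, 2386 and 1713 in control libraries. The next to Sox10 were Chst3, a chondroitin sulfotransferase, and Vcan, the versican proteoglycan of OPCs. Among the genes nearest to Myrf were Galnt6, a mucin-type glycosyltransferase, and Mag, the myelin-associated glycoprotein. Slc22a23, Tubb4a and Frmd4b were nearest to Olig1, and Sema3d, Mcam and Cd9 to Olig2. Among the factors themselves, Sox10 and Zfp488 were the closest pair at 0.12, followed by Olig1 and Sox8 at 0.15 and Olig2 and Myrf at 0.20.

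A list of 38 other regulators of the lineage held chromatin remodelers, bHLH and Id proteins, Notch effectors and zinc finger factors. Of these, 12 were lower, where 12.4% of all genes were, and 3 were higher, where 12.0% of all genes were, with a median log2 fold change of -0.18. Among the lower ones were Smarca4, Zfp536, Zfp276, Tcf3, Sp7, Chd7, Myt1, Ezh2, Chd8, Zeb2 and Hes5. Smarca4, the ATPase of the SWI/SNF remodeler that works with Olig2, had 3007, 3045, 3234 and 3606 normalized counts in KI libraries, against 4115, 4453, 4118 and 4174 in control libraries, a log2 fold change of -0.39 (adjusted p = 0.0111, limma). Zfp536, a zinc finger factor, averaged 487 ± 211 in KI mice and 1138 ± 126 in control mice, with a log2 fold change of -1.31. Id2, which sequesters bHLH partners and holds back OL differentiation, was higher at 0.30 (adjusted p = 0.0122, limma), as were Nfia and Nfib, nuclear factor I proteins of gliogenesis. Hes1, a Notch-effector repressor, was furthest in that direction at 0.53 without passing (adjusted p = 0.0866, limma). Leaving out 1 library gave 2 to 17 lower members over 8 fits, in which the share of all genes that were lower ranged over 2.28% to 18.2%. There were 2 without KI replicate 2 (2.73% of all genes) or control replicate 2 (2.28%), 3 without control replicate 3 (5.44%), 5 without KI replicate 3 (7.44%), 6 without control replicate 1 (7.17%), and 7 without KI replicate 1 (7.08%) or control replicate 4 (11.5%). Without KI replicate 3 and control replicate 4 together, 4 were lower and 1 was higher, beside 6.14% and 6.07% of all genes. The higher members numbered 1 without KI replicate 2, KI replicate 3, control replicate 1 or control replicate 2, and 5 without KI replicate 4. Of all genes, 3.6% to 8.16% were higher in the former fits and 16.8% in the latter.

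Of 9 myelin and OL genes known as targets of Sox10 and Myrf, 6 were lower and 0 higher, where 12.4% and 12.0% of all genes were. The median log2 fold change of the 9 was -1.19. Nfasc, the neurofascin of paranodes and nodes, had 11240, 10259, 7008 and 21044 normalized counts in KI libraries, against 30151, 35577, 38777 and 31852 in control libraries. It was lower at -1.57 (adjusted p = 0.0106, limma), beside Mag at -1.77. Trf at -1.13, Gjb1 at -0.69 and Mbp, the myelin basic protein gene, at -0.48 did not pass. In Mbp the 2 groups overlapped, at 233594 to 536823 in KI libraries and 409000 to 647700 in control libraries. The count of lower targets was 3 without control replicate 1 (7.17% of all genes were lower). It was 1 without KI replicate 2 (2.73%), control replicate 2 (2.28%) or control replicate 3 (5.44%). Without KI replicate 3 and control replicate 4 together it stayed at 6 (6.14%).

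Markers of the cells that carry these factors moved with them, and their part in the factor levels was not tested. For comparison, 12.4% of all genes were lower and 12.0% higher by the same limma call. A list of 12 markers held genes of OPCs and of newly formed OLs together, called OPC markers here for short. Of these 12, 10 were lower, among them Cspg4 (the NG2 proteoglycan) at -2.12, Tnr at -1.69 and Tmem163 at -0.95. The summed level of the 12 was 7595 to 20574 in KI libraries and 29605 to 34014 in control libraries. The 2 stages were not separated in these counts and sums. Of 12 mature OL markers 7 were lower, among them Adamts4 at -1.80, Cnp at -1.65 and Gpr37 at -0.99. But 3 were lower with either DESeq2 (14.3% of all genes) or edgeR (11.2%), and 2 with the Xist covariate (6.64%). Their summed level was 95376 to 328271 in KI libraries and 279366 to 383545 in control libraries, and KI replicate 4 was the highest KI library in both sums. Of 12 astrocyte markers 8 were higher, among them Gjb6 at 1.19, Slc1a2 at 0.89 and Gja1 at 0.70, while Aqp4 was at -0.17 without passing. Their summed level was 306612 to 503345 in KI libraries and 222636 to 272398 in control libraries. Single libraries moved these counts too. Without KI replicate 3 and control replicate 4, 6 OPC and 3 mature OL markers were lower and 5 astrocyte markers higher. Of all genes, 6.14% were then lower and 6.07% higher. Leaving out KI replicate 2 gave 5 OPC, 0 mature OL and 0 astrocyte calls, and leaving out control replicate 2 gave 4, 1 and 0. The all-gene shares fell as well, to 2.73% and 2.28% lower and 3.91% and 3.6% higher, in that order. Leaving out KI replicate 1, KI replicate 3, control replicate 1 or control replicate 3 gave 2 mature OL and 4 to 5 astrocyte calls. In those fits 5.44% to 7.44% of all genes were lower and 6.94% to 8.16% higher.

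Of 10 neuronal markers 1 was lower and 2 were higher, beside 12.4% and 12.0% of all genes. Their summed level was 196131 to 211791 in KI libraries and 166965 to 181321 in control libraries, so all KI libraries were above all control libraries. The 2 higher markers weigh heavily in that sum. Snap25 averaged 66733 in KI mice and 49655 in control mice, and Map2 averaged 36307 and 22427. Over the 10, 6 log2 fold changes were positive and 4 negative, with Syn1 lower at -0.36. Of 8 endothelial markers 1 was lower, and none of the 8 microglial, 7 choroid plexus and 9 hindbrain markers passed. The hindbrain sum was 2301 to 6253 in KI libraries and 1704 to 4574 in control libraries, so the 2 groups overlapped. Of the 9 hindbrain log2 fold changes, 8 were positive and 1 was negative, with a median of 0.52. The 7 choroid plexus log2 fold changes were all negative, with a median of -1.31.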

How the data were processed

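The deposited table covers BS RNA-seq of 4 KI and 4 control mice. The authors used STAR 2.7 for alignment (mm10) and HTSeq for unstranded counting, which left out ambiguous and nonunique reads, and divided each count by a DESeq2 size factor. The deposited signal is that normalized count. Multiplied back, 100% of values were whole reads within 0.01. Of 24709 lines, 628 repeated a gene and were dropped. The authors' deposited log2 fold changes, score (Wald statistic) and p-values hold the authors' own comparison and were not used.

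Genes averaging 10 or more normalized counts were tested on log2(normalized count + 1) with limma 3.58.1 (R 4.3.3), with a variance trend and Benjamini-Hochberg adjustment at 0.05. Since the numbers did not pair the mice, the replicate block was kept as an alternative. edgeR 4.0.16 and DESeq2 1.42.0 on recovered reads, TMM scaling, other pseudocounts, no filter, a log2 Xist covariate and libraries left out were also tried. A GC and length correction and a fit of the libraries low in Xist were added after the data had been seen. The limma, edgeR and DESeq2 fits of all 8 libraries were tested on simulated counts, and the other alternatives were not. The labels name separate samples, and replicates were not duplicates.

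The 10 factors, the gene lists and the named-gene rule were chosen with earlier results of these data known. The rule named all 10 factors, the 3 list members with the smallest p, the member furthest in the other direction, the 3 genes most like Olig1, Olig2, Sox10 and Myrf, and the checks Pdgfra, Gt(ROSA)26Sor, Ttr and Xist. A few genes that the rule or the lists hold are not reported here. Other genes named, those most like Tcf7l2 among them, were chosen after their values were seen. Coordinates and exon lengths are from GENCODE vM21 and start-site sequences from RefSeq (GRCm38.p6), which held 6 of the 10 factors.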

Additional observations from a re-analysis of the deposited data

Results flagged for a closer look

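In 38 checks of 4 libraries each for 1 value far from the rest, 5 stood out, where chance gives about 1 in 20. The measure is the gap from the extreme library to its nearest neighbor divided by the range of the group, set against Dixon's critical value. For the normalized count of Tcf7l2 it was 0.986 in KI mice, where replicate 3 had 2030 and the others 154 to 179, and 0.933 in control mice, where replicate 4 had 1355 and the others 224 to 299. For Sox8 it was 0.891 in KI mice, where replicate 4 had 1992 and the others 1005 to 1113. For the log2 ratio of Sox8 to Olig2 it was 0.933 in control mice, where replicate 1 had -0.06 and the others 0.11 to 0.12. For the log2 ratio of Tcf7l2 to Olig2 it was 0.835 in control mice, where replicate 4 had -0.68 and the others -3.50 to -3.03.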

How the results depend on the processing

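No call of a factor reversed its direction under any of the alternatives run. With the replicate block, which the data gave no ground for (same-numbered libraries had residual correlations of 0.26, -0.12, -0.46 and -0.36), 0 factors were lower and 0 higher, as were 0 other regulators in either direction and 0 lower targets. Of all genes tested, 0 passed in either direction in that fit. The adjusted p of the 7 called factors was then 0.0559 to 0.0578 in limma. With 1 library left out, the factors lower in KI mice numbered 2 to 8 and those higher 0 to 1, the other regulators 2 to 17 lower and 1 to 5 higher, the lower targets 1 to 8, and the ratios to Olig2 that passed 0 to 6. The share of all genes in these fits was 2.28% to 18.2% lower and 3.6% to 16.8% higher. No factor was higher after the GC and length correction or in the libraries low in Xist alone, where the counts were 0 and Zfp24 had an adjusted p of 0.0638 and 0.0505. The other regulators numbered 4 lower with the Xist covariate (6.64% of all genes) and 6 higher with DESeq2 (14.9%). They numbered 4 lower and 1 higher without the libraries low in Ttr (6.14% and 6.07%). After the GC and length correction they numbered 5 lower and 1 higher (7.61% and 8.05%). The cause of these changes was not tested, though fewer libraries enter the left-out fits. DESeq2 gave no adjusted p for Tcf7l2. With 4 mice a group, a factor that missed the threshold is not shown to be equal between groups.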
